A study of Mus musculus with 16 samples.

Results

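Transcripts of 10 genes that are widely read as marks of fibroblasts, pericytes and platelet-derived growth factor (PDGF) signalling were followed in cancer cells that survived an attack by T cells. The genes are Pdgfa, Pdgfb, Pdgfra, Pdgfrb, Acta2, Tagln, Rgs5, Fap, Thy1 and S100a4. They were chosen by symbol, and each has 1 row among the 49315 genes of the count tables. The cells are 4T07, a mouse mammary carcinoma line, transduced with GFP or with mCherry. Mixed tumours grew from 250000 cells, GFP and mCherry at 1:1, placed in the mammary fat pad. The hosts were female mice, the F1 of C57BL/6J x Balb/cJ. These mice received PD1KO Jedi T cells (specific for a GFP peptide) through the tail vein on day 7 or day 15 of tumour growth. Tumours were taken 7 days later, and the mCherry cells of a tumour, which the T cells do not target, served as the paired control of its surviving GFP cells. Each day has 3 such tumours, with a GFP and an mCherry library from each. Another 4 control tumours held mCherry cells without GFP cells and received no Jedi T cells. No group holds GFP cells that met no T cells, so that the label and the attack cannot be told apart in the GFP cells.

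PDGF ligands bind as dimers to 2 receptor tyrosine kinases, PDGFR-alpha and PDGFR-beta. PDGF-A acts through the alpha receptor, while PDGF-B binds both and is the signal with which endothelial cells hold pericytes on vessels through the beta receptor. In tumours the receptors, smooth muscle actin (Acta2), transgelin (Tagln), the G-protein regulator Rgs5, the protease FAP, the surface glycoprotein Thy1 and the calcium-binding protein S100A4 are used to tell fibroblasts and pericytes from carcinoma cells. Carcinoma cells that have lost epithelial traits can make several of them too, S100A4 and the PDGF receptors among them.

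Libraries held 9412040 to 32808354 counts. Levels are given as CPM, counts scaled to a common library size, with TMM factors over the 16 libraries, with the SD over the tumours of a group. Tumours and controls are called by the numbers of their count columns. The day 7 libraries make up sequencing run 1, and the day 15 and control libraries run 2. A difference in level between day 7 and the other groups cannot be told apart from one between the runs. Cells were sorted after a CD45 stain, with no gate given. RNA of other cells was present at levels that differed between groups: 13 endothelial markers summed to 18.3 to 19 CPM in day 7 GFP cells and 53.6 to 98.7 CPM in day 7 mCherry cells, and to 25.2 to 34.2 against 40 to 73.7 CPM on day 15. The 13 macrophage and myeloid markers (14 rows, as Itgam has 2) summed to 108 to 180 CPM in GFP and 660 to 936 CPM in mCherry cells on day 7, and to 56.1 to 73.2 against 89.5 to 111 CPM on day 15. All 13 genes passed the test as lower in GFP cells on day 7, where the second row of Itgam missed the filter. T and NK cell markers summed to at most 5.85 CPM in any library. The 10 carcinoma markers, with Krt8 at 332 to 912 CPM and Epcam at or under 2.64 CPM, differed with colour as well. They summed to 451 to 657 CPM in GFP and 990 to 1390 CPM in mCherry cells on day 7, and to 461 to 550 against 628 to 932 CPM on day 15. On each day 1 rose in GFP cells, Cdh1 (1.92 and 1.36), and 2 fell, Krt8 (−0.96 and −0.55) and Krt18 (−1.72 and −0.98), of 4 tested on day 7 and 7 on day 15.

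One library stands apart. In control 2 the endothelial markers summed to 149 CPM, against 36.3 to 54.3 CPM in the other controls, and the macrophage and myeloid markers to 204 against 78.8 to 121 CPM. Results set against the controls are therefore given with and without it where it changes them.

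The 10 genes covered a wide range of levels. Per kilobase of exon, S100a4 had the highest mean of the 10 in every group, from 87 CPM per kb in day 15 mCherry cells to 249 CPM per kb in day 7 mCherry cells. Pdgfa (31.4 to 43.5 CPM per kb) and Pdgfra (17.8 to 65.4 CPM per kb) followed, with Pdgfa above Pdgfra on day 7 and below it in the 3 groups of run 2. Pdgfrb came next with 3.53 to 12.3 CPM per kb. Acta2 and Pdgfb lay at 0.287 to 1.87 CPM per kb, and Tagln, Rgs5, Fap and Thy1 at 0.0622 to 2.39 CPM per kb. Genes near each other in the lower part of this order overlapped between libraries and were not ranked.

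**Figure D1:**
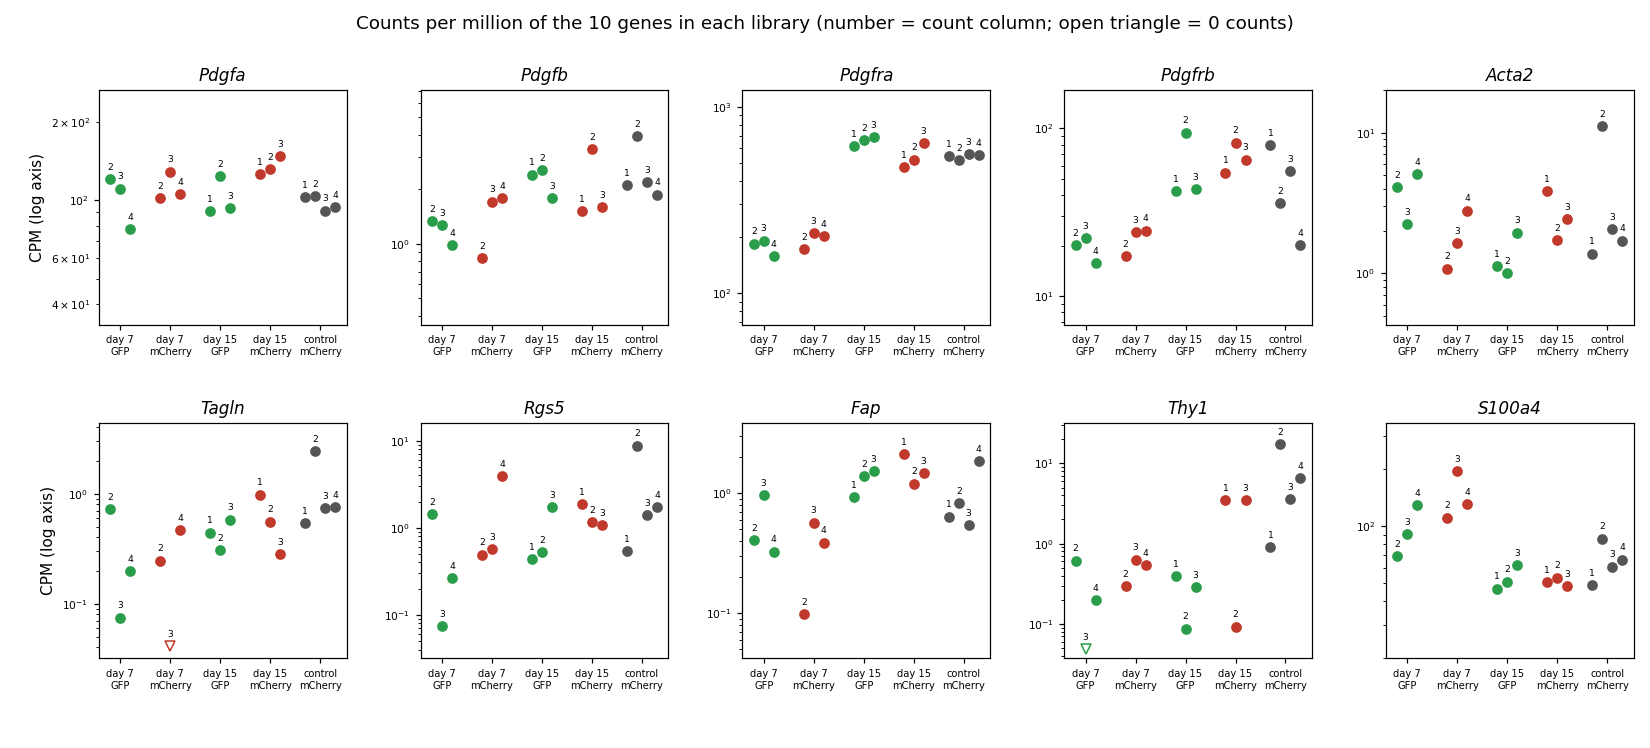
CPM of each of the 10 genes (vertical log axes, 1 panel a gene) in the 16 libraries by group (horizontal axis), with green for GFP, red for mCherry and grey for control cells. Pdgfra and Pdgfa sit close together over the 4 controls, while control 2 lies above the other controls for Acta2, Tagln, Rgs5 and Thy1.

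Of the 2 ligands, Pdgfa, the gene of the PDGF-A chain (chr5:138976014-138997370, minus strand, GRCm38), fell in surviving GFP cells on day 15. Its level was 91, 124 and 93.5 CPM in the GFP cells of tumours 1, 2 and 3 and 126, 132 and 148 CPM in their mCherry cells. Each GFP library lay below each mCherry library, as for 36.3% of genes in either direction (103 ± 18.1 against 136 ± 11.2 CPM, SD, n = 3 each). On the log2 scale the fold change was −0.41 (SE 0.11, adjusted p = 0.0232 by edgeR's quasi-likelihood test), or 1.33-fold lower. Of the 9 members that passed the filter on low counts on day 15, Pdgfa was the single one called, beside 19.5% of the 14260 genes tested. In a bulk sample fewer cells of a type and less RNA per cell cannot be told apart. With tumour 3 left out the call was lost (−0.28, adjusted p = 0.169), as it was in a fit that did not block on tumour (−0.40, adjusted p = 0.0603).

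Neither colour passed the threshold against the controls by edgeR's test. The 4 controls held 103, 104, 91.4 and 93.9 CPM (98.1 ± 6.38). All 3 day 15 mCherry libraries exceeded all 4 controls, with a log2 difference of 0.46 (SE 0.08, unadjusted p = 0.000231, adjusted p = 0.251 by edgeR's quasi-likelihood test). Groups failed to overlap for 14.5% of the 14800 genes tested there. In that comparison edgeR called 0 genes, with 2104 (14.2%) at an unadjusted p under 0.05, and DESeq2 called 262 (2.43%), Pdgfa among them (adjusted p = 0.00117). GFP cells differed from the controls by 0.07 on the log2 scale (95% interval −0.19 to 0.32, adjusted p = 0.726). Both comparisons use the same control libraries.

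On day 7 Pdgfa showed no common direction. The GFP cells of tumours 2, 3 and 4 held 121, 111 and 77.8 CPM and the mCherry cells 102, 129 and 106 CPM. GFP cells were higher in 1 tumour and lower in 2 (log2 fold change −0.12, 95% interval −0.42 to 0.18, adjusted p = 0.572).

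Pdgfb, the gene of the PDGF-B chain (chr15:79995874-80014977, minus strand), was scarce. It had 13 to 27 counts in each day 7 library and 34 to 132 in each library of run 2. On day 15 its level was 2.41, 2.54 and 1.78 CPM in GFP cells and 1.52, 3.34 and 1.59 CPM in mCherry cells. These ranges overlap, and the difference of 0.12 on the log2 scale had a 95% interval from −0.53 to 0.77. The day 7 difference was −0.23 (−1.18 to 0.72), with GFP cells higher in 1 tumour of 3.

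The other 2 ligands serve as a comparison within the family. Pdgfc, whose product is a latent dimer that proteases activate to bind mainly the alpha receptor, was 10.4, 12.1 and 14.6 CPM in day 7 GFP cells and 31.1, 23.1 and 31.4 CPM in their mCherry partners. It was 21.8, 24.6 and 22.7 CPM in day 15 GFP cells and 46.1, 45.9 and 42.4 CPM in the mCherry cells. Groups did not overlap on either day, as for 34.1% and 36.3% of genes. Pdgfc fell by 1.18 (SE 0.16, adjusted p = 0.00103) on day 7 and fell by 0.96 (SE 0.09, adjusted p = 0.000167) on day 15, on the log2 scale of edgeR's quasi-likelihood test, in 3 of 3 tumours each time. Against the controls (42.2 ± 13.9 CPM, n = 4) it was lower in GFP cells (−0.87, adjusted p = 0.043), and mCherry cells differed by 0.08 (95% interval −0.43 to 0.59). The controls held 54.6, 32.3, 53.7 and 28.2 CPM, and the call in GFP cells was not refitted with a library left out. Pdgfd had at most 10 counts in any library and passed no filter. Pdgfrl, a receptor-like gene without a kinase, did not pass the test on day 7 (0.10, adjusted p = 0.732) or day 15 (−0.25, adjusted p = 0.257).

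**Figure D2:**
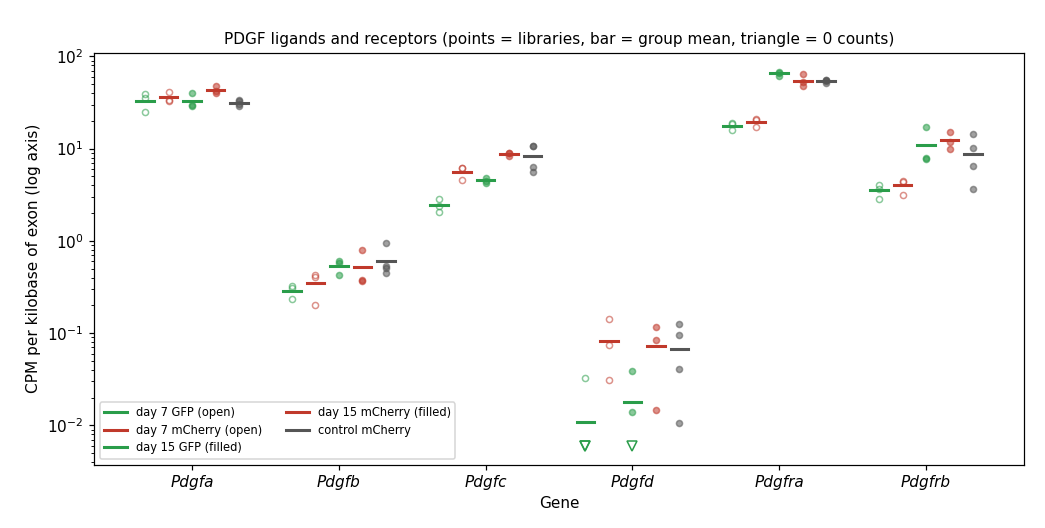
CPM per kilobase of exon (vertical log axis) of the 4 PDGF ligand genes and the 2 receptor genes (horizontal axis), with points for libraries, bars for group means and triangles for 0 counts. Pdgfa and Pdgfra lie highest, and the GFP bars of Pdgfc lie below the mCherry bars on both days.

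Pdgfra, the alpha receptor gene (chr5:75152292-75198215, plus strand), ranked after Pdgfa among the PDGF genes per kilobase on day 7 and before it in run 2. On day 15 it was 614, 666 and 686 CPM in GFP cells and 473, 522 and 638 CPM in mCherry cells of tumours 1, 2 and 3. GFP cells were higher in 3 of 3 tumours, though the GFP library of tumour 1 lay below the mCherry library of tumour 3. The log2 fold change of 0.28 (SE 0.09, 95% interval 0.08 to 0.48) did not pass edgeR's quasi-likelihood test (adjusted p = 0.0576). It passed DESeq2 (adjusted p = 0.0346), which called 17.2% of genes, and edgeR with no filter on low counts (adjusted p = 0.00987), which called 12.8%. In the authors' deposited table, where 16.8% passed, it was 0.28 (adjusted p = 0.0349).

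The controls held 546, 517, 556 and 550 CPM of Pdgfra, all below the 3 GFP libraries, as groups did not overlap for 29.9% of genes. GFP cells were higher than controls by 0.27 (SE 0.07, adjusted p = 0.0445 by edgeR's quasi-likelihood test), or 1.21-fold. Pdgfra was called there, as was Thy1, which passed the filter through the controls alone. Over all 14801 genes 13.1% were called (6.09% higher and 6.97% lower). The Pdgfra call was lost with any single library left out (adjusted p 0.0562 to 0.122), with no filter (0.0966) and with all run 2 libraries in 1 fit (0.0684). Day 15 mCherry cells and controls differed by 0.00 on the log2 scale (95% interval −0.23 to 0.23).

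On day 7 Pdgfra was 185, 192 and 159 CPM in GFP cells and 173, 210 and 202 CPM in mCherry cells (−0.11, 95% interval −0.36 to 0.15, adjusted p = 0.562). These levels are all below the lowest level of run 2, 473 CPM, in both colours, and day and sequencing run cannot be told apart there. The difference between the days in the GFP effect was 0.39 (95% interval 0.06 to 0.71, adjusted p = 0.393). Across the 16 libraries the genes whose log2 CPM followed Pdgfra most closely were Dynll2 (r = 0.992), Fn3krp (r = 0.989) and Lix1l (r = 0.988), a description in which the 6 libraries of run 1 stand apart from the 10 of run 2.

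Pdgfrb, the beta receptor gene, varied more between tumours than between colours. In day 15 GFP cells it was 42.1, 94.5 and 43.6 CPM, and in mCherry cells 54.5, 82.3 and 65.2 CPM. Both colours of tumour 2 were high, and tumour 2 was also the one in which GFP cells exceeded mCherry cells. The log2 fold change was −0.25 (SE 0.13, adjusted p = 0.233), and without tumour 2 it was −0.47 (adjusted p = 0.0092 by edgeR's quasi-likelihood test, 2 tumours). As tumour 2 went the other way, leaving it out had to make the fall larger. The controls spread 3.95-fold, at 79.7, 35.7, 55.9 and 20.2 CPM. Day 7 levels were 20.1, 22.2 and 15.8 CPM in GFP and 17.3, 24.1 and 24.6 CPM in mCherry cells (−0.17, 95% interval −0.57 to 0.24). Its closest genes over the 16 libraries were Nfkbiz (r = 0.914), Cmklr1 (r = 0.907) and Rgs3 (r = 0.901).

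Downstream of the receptors, a list of 23 adaptors, kinases and phosphatases of PDGF receptor signalling was measured in full. On each day 0 of 23 rose and 3 fell, beside 18.2% of genes called in either direction on day 7 (8.89% higher, 9.33% lower) and 10.6% called lower on day 15. Median log2 fold changes were −0.02 on day 7 and −0.07 on day 15, beside 0.00 and 0.01 over all genes tested. The adaptor Nck2 fell by 0.43 (SE 0.10, adjusted p = 0.0151) and fell by 0.42 (SE 0.08, adjusted p = 0.00519). Ptprj, a receptor phosphatase that can dephosphorylate the beta receptor, fell by 1.54 (SE 0.39, adjusted p = 0.0237) and fell by 0.61 (SE 0.17, adjusted p = 0.0294). The remaining calls, named after their values were seen, were Nck1 on day 7 (−0.39, adjusted p = 0.048) and Rasa1 on day 15 (−0.28, adjusted p = 0.0416).

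Among the contractile genes, Acta2 (chr19:34241090-34255590, minus strand) differed in opposite directions on the 2 days. Its transcription in smooth muscle and myofibroblasts depends on serum response factor bound to CArG boxes, and its promoter is shown for that reason. The window runs from 250 bases before to 50 after the RefSeq start (GRCm38.p6, chr19:34255324-34255623, minus strand), with matches in capitals.
Acta2: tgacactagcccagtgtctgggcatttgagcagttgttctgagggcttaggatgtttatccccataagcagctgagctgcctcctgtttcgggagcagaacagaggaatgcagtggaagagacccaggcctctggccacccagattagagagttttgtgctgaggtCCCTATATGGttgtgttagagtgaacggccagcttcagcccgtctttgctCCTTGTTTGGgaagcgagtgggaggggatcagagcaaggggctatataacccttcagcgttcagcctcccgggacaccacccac

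The search took CC, a core of 6 bases and GG, a pattern that reads the same on both strands as a class, and allowed at most 1 core base other than A or T. CCCTATATGG begins at −84 and CCTTGTTTGG at −34 from the RefSeq start, each with 1 such base. A match of this kind was found in 9.98% of the 32851 RefSeq windows of the same length, and one with a core of A and T alone in 1.63%. The table held windows for 5 of the 10 members, and those of Rgs5, S100a4, Pdgfra and Pdgfa hold no match. These matches describe the letters of the window, and no binding was measured. The letters tatataa of the Acta2 window lie after the RefSeq start, and where transcription begins was not measured.

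In day 7 GFP cells of tumours 2, 3 and 4 Acta2 was 4.11, 2.24 and 5.04 CPM, from 40, 30 and 77 counts. The mCherry cells had 1.08, 1.65 and 2.79 CPM, from 22, 26 and 36 counts. GFP cells were higher in 3 of 3 tumours, while the groups overlapped. The fitted log2 fold change was 1.08 (SE 0.35, 95% interval 0.30 to 1.85, adjusted p = 0.0573 by edgeR's quasi-likelihood test).

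On day 15 the order within each tumour was the other way round. Acta2 was 1.13, 1.01 and 1.95 CPM in GFP cells and 3.84, 1.72 and 2.43 CPM in mCherry cells, lower in GFP cells in 3 of 3 tumours. This gave a log2 fold change of −0.94 (SE 0.33, 95% interval −1.67 to −0.20, adjusted p = 0.0763). The difference between the 2 effects was −2.01 (SE 0.51, unadjusted p = 0.0017, adjusted p = 0.158). None of the 10 members passed that test, beside 0.211% of 16626 genes. With no filter on low counts all 3 values passed (adjusted p = 0.00507, 0.0118 and 0.000973 in turn), where 9.68%, 12.8% and 1.03% of genes did. In the authors' deposited tables Acta2 was 1.09 (adjusted p = 0.109) and −0.94 (adjusted p = 0.152).

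Endothelial and macrophage markers were lower in GFP cells on both days, in the direction of Acta2 on day 15 and against it on day 7. Their part in the Acta2 values was not tested. Among 18 other pericyte and smooth muscle markers 6 could be tested on day 7, of which 0 rose and 1 fell, beside 9.33% of all genes called lower. Mcam, an adhesion molecule of pericytes and smooth muscle, fell by 1.83 (SE 0.23, adjusted p = 0.000622). On day 15 0 rose and 4 fell of 9, beside 10.6% of all genes called lower, with Mcam at −1.32 (SE 0.14, adjusted p = 0.000255) and the pericyte receptor Notch3 at −0.83 (SE 0.16, adjusted p = 0.00552). The 2 other calls, named after their values were seen, were Synpo2 (−0.89, adjusted p = 0.0206) and Smtn (−0.29, adjusted p = 0.0253).

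A list of 21 genes of the serum response factor pathway and the actin cytoskeleton matched 17 rows by the symbols used. The listed genes without a row were not looked at. On day 7, 5 rose and 0 fell of 14 tested, and on day 15, 4 rose and 0 fell of 16. Over all genes 8.89% and 8.94% were called higher. Median log2 fold changes over the listed genes tested were 0.12 and 0.08. Zyx, the gene of the focal adhesion protein zyxin, rose by 0.75 (SE 0.10, adjusted p = 0.000857) and cytoplasmic actin Actg1 by 0.74 (SE 0.10, adjusted p = 0.00112) on day 7. On day 15 the calponin Cnn2 rose by 0.50 (SE 0.08, adjusted p = 0.00198) and Srf itself by 0.55 (SE 0.09, adjusted p = 0.002).

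Tagln, which encodes an actin-binding protein of smooth muscle (chr9:45929619-45936058, minus strand), stayed near the limit of counting. It had 0 to 7 counts in each day 7 library and passed no filter there. The library with 0 counts, mCherry of tumour 3, allows up to 0.19 CPM (3 counts, counting error alone). On day 15 GFP cells had 0.442, 0.306 and 0.58 CPM and mCherry cells 0.981, 0.557 and 0.28 CPM, from 6 to 22 counts. The ranges overlap, and the log2 difference of −0.38 had a 95% interval from −1.55 to 0.80. Tagln lies across Pcsk7 on the opposite strand, and no source used here says whether counting used the strand. Pdgfa, Pdgfb and Pdgfra have annotated antisense transcripts as well, and S100a4 shares its strand with the gene model Gm42674.

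Rgs5, a pericyte gene that shortens G-protein signals (chr1:169655501-169695813, plus strand), was uneven between tumours. In day 7 GFP cells it was 1.44, 0.0746 and 0.262 CPM and in mCherry cells 0.492, 0.571 and 3.88 CPM. The highest of these, mCherry of tumour 4, came from 50 counts, and the GFP library of tumour 3 had 1. Kcnj8 and Abcc9, which together form a potassium channel of pericytes, had 16 and 31 counts in that mCherry library, their highest on day 7. On day 15 the GFP cells held 0.442, 0.525 and 1.74 CPM and the mCherry cells 1.87, 1.16 and 1.07 CPM. Tumours 1 and 2 were lower in GFP cells and tumour 3 higher (log2 fold change −0.71, 95% interval −1.83 to 0.41, adjusted p = 0.357). Over the 16 libraries its closest genes were Synpo2 (r = 0.805), the endothelial receptor Flt1 (r = 0.799) and the basement membrane gene Nid1 (r = 0.799). Without control 2 these were 0.716, 0.693 and 0.681.

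**Figure D3:**
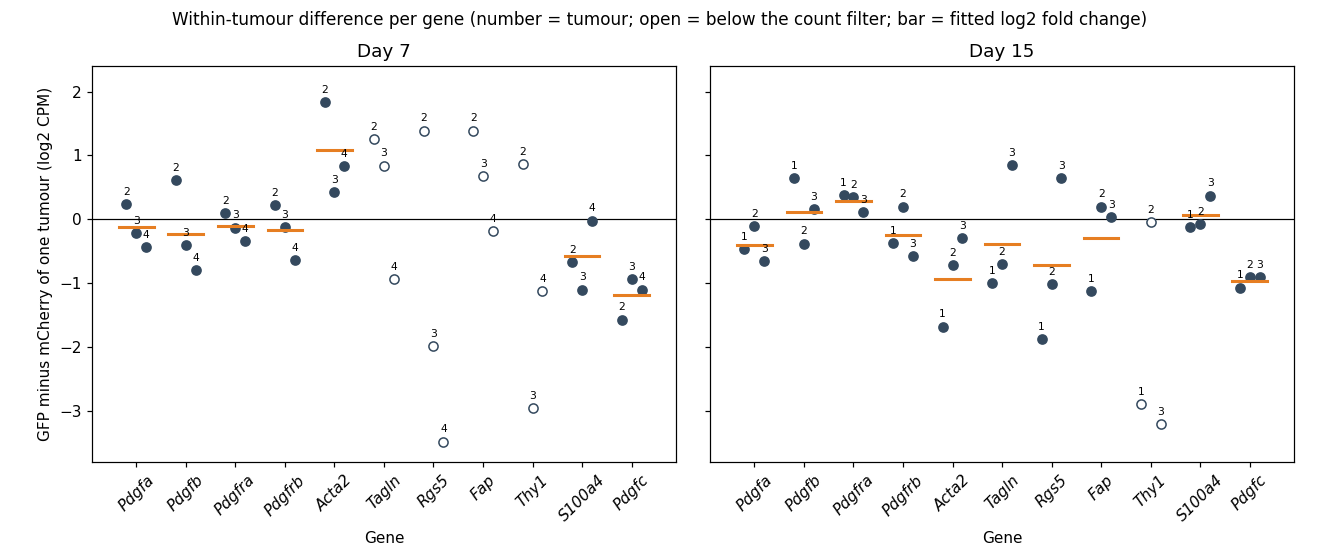
Log2 CPM of GFP cells minus that of mCherry cells of the same tumour (vertical axis) for the 10 genes and Pdgfc (horizontal axis) on day 7 and day 15, with tumour numbers, orange bars for fitted log2 fold changes and open points for genes below the count filter. The 3 points of Acta2 lie above 0 on day 7 and below 0 on day 15, and those of Pdgfc lie below 0 on both days.

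Of the surface genes used for fibroblasts, Thy1 differed most between libraries. Thy1 (chr9:44043384-44048579, plus strand) encodes a glycoprotein anchored in the membrane of fibroblasts, and in mice also of T cells. On day 15 GFP cells had 0.393, 0.0875 and 0.29 CPM, from 8, 2 and 7 counts. The mCherry cells of tumours 1, 2 and 3 had 3.52, 0.0928 and 3.45 CPM, from 79, 2 and 74 counts. GFP cells were low in all 3 tumours, and mCherry cells were high in tumours 1 and 3 and as low as GFP cells in tumour 2. Thy1 missed the filter in this comparison. With no filter, where 12.8% of genes passed, edgeR's test gave a log2 fold change of −3.05 (SE 0.44, adjusted p = 2.04e-10). In the authors' deposited table, where 16.8% passed, it was −2.88 (adjusted p = 0.000586). Both values rest on the mCherry libraries of tumours 1 and 3. A gene counted almost only there had to be lower in GFP cells, so they are given as a description. In tumour 2 the log2 difference was −0.04.

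The controls had 0.896, 17.5, 3.62 and 6.58 CPM of Thy1, from 28, 587, 107 and 165 counts, and all 3 GFP libraries lay below all 4 of them. Here Thy1 passed the filter through the controls alone, since each GFP library had fewer than 10 counts, so that a gene kept this way had to be lower in GFP cells and its call is given as a description. The log2 difference was −4.80 (SE 1.08, 95% interval −7.25 to −2.34, adjusted p = 0.0268 by edgeR's quasi-likelihood test). It was −3.83 (adjusted p = 0.0333) without control 2, and the call was lost without any 1 of the GFP libraries (adjusted p 0.0748 to 0.0896). The mCherry cells differed from controls by −1.61 (95% interval −3.91 to 0.70, adjusted p = 0.483).

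Thy1 went together with fibrillar collagen over the libraries. Its log2 CPM correlated with Col1a2 at r = 0.97, with Col3a1 at 0.967 and with Col5a2 at 0.961 over 16 libraries, and with Col1a2 at 0.96 without control 2. Col1a2, a chain of type I collagen, was 11.6, 1.84 and 5.31 CPM in day 15 GFP cells, 86.9, 1.02 and 123 CPM in mCherry cells and 35.7, 486, 98.3 and 132 CPM in controls. In tumour 2 the mCherry cells had 2 counts of Thy1 and the lowest Col1a2 of all libraries. Col1a2 was picked as the closest to Thy1 of 11592 genes over these same libraries. Low values of both genes in the same library follow from that choice and are a description. The 16 points share 6 libraries from run 1 and 2 libraries from each mixed tumour. The 8 T and NK cell markers summed to 0.464 to 0.606 CPM in the 3 day 15 mCherry libraries. Among them Cd3d was at 0 counts and Cd3e at 2 to 5 counts, and Thy1 had up to 79 counts there. Which cells the Thy1 RNA came from was not tested. On day 7 Thy1 had 0 to 6 counts in GFP cells and 6 to 10 in mCherry cells, and 0 counts in the GFP library of tumour 3 allow up to 0.224 CPM.

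**Figure D4:**
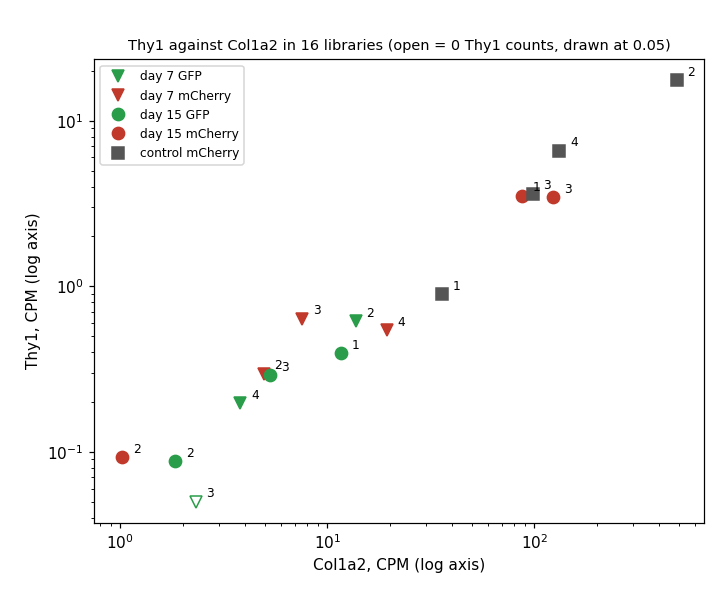
Thy1 (vertical log axis, CPM) against Col1a2 (horizontal log axis, CPM) in the 16 libraries, with column numbers beside the points and 1 open point for 0 Thy1 counts. Control 2 lies at the top right with 17.5 CPM of Thy1 and 486 CPM of Col1a2, and both colours of day 15 tumour 2 lie at the bottom left.

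Other fibroblast markers were mostly lower or not called in GFP cells. Of 22 listed, 17 were tested on day 7, where 0 rose and 6 fell (median log2 fold change −0.82), and 20 on day 15, where 1 rose and 9 fell (median −0.82). Over all genes 8.89% were called higher and 9.33% lower on day 7, and 8.94% and 10.6% on day 15. Medians over all genes were 0.00 and 0.01. Fbln2, a matrix protein, fell by 1.22 (SE 0.11, adjusted p = 9.98e-05) and Pi16, a mark of adventitial fibroblasts, fell by 2.48 (SE 0.24, adjusted p = 0.000125) on day 7. The 1 that rose on day 15 was the proteoglycan gene Dcn (1.25, SE 0.09, adjusted p = 3.04e-05), while Pi16 fell by 1.53 (SE 0.15, adjusted p = 0.000161).

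Fap, the gene of fibroblast activation protein (chr2:62500943-62574075, minus strand), gave no difference that could be told from the spread. It had 2 to 13 counts in each day 7 library and missed the filter. On day 15 it was 0.934, 1.4 and 1.53 CPM in GFP cells and 2.14, 1.21 and 1.49 CPM in mCherry cells. Tumour 1 was lower in GFP cells, and tumours 2 and 3 were slightly higher (−0.30, 95% interval −1.11 to 0.51, adjusted p = 0.601). The controls had 0.64, 0.835, 0.541 and 1.87 CPM. The gene with the closest pattern was Napg (r = 0.904 over 16 libraries).

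S100a4, the most abundant member per kilobase of exon though not in CPM (chr3:90603771-90606045, plus strand), fell in GFP cells on day 7. Its level was 69.7, 91 and 129 CPM in GFP cells of tumours 2, 3 and 4 and 111, 195 and 131 CPM in mCherry cells. GFP cells differed by −0.67 and −1.10 on the log2 scale in tumours 2 and 3, and by −0.02 in tumour 4. The log2 fold change was −0.58 (SE 0.17, adjusted p = 0.0437 by edgeR's quasi-likelihood test), or 1.49-fold lower (96.7 ± 30.1 against 145 ± 43.9 CPM, SD, n = 3 each). S100a4 was the single call among the 6 members that passed the filter on day 7, beside the 18.2% of 14578 genes called. This call too was lost with tumour 3 left out (−0.31, adjusted p = 0.351) and with no block on tumour (−0.57, adjusted p = 0.135). S100a4 is also a gene of macrophages, and the part of the macrophage markers, at 108 to 180 CPM in GFP and 660 to 936 CPM in mCherry cells that day, was not tested.

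On day 15 S100a4 was 46.7, 50.9 and 62.1 CPM in GFP cells and 50.8, 53.4 and 48.1 CPM in mCherry cells. The ranges overlap (0.06, 95% interval −0.18 to 0.30, adjusted p = 0.74). The difference of the GFP effects between the days was 0.64 (95% interval 0.12 to 1.15, adjusted p = 0.371). The controls held 48.5, 86, 61.1 and 66.6 CPM, and mCherry cells differed from them by −0.37 (95% interval −0.75 to 0.01, adjusted p = 0.357). S100a13, another small calcium-binding protein, was closest to S100a4 of 11592 genes over the 16 libraries (r = 0.95). It fell on day 7 (−0.65, SE 0.15, adjusted p = 0.0151). The day 7 libraries are among those in which its likeness to S100a4 was found, so this fall is no separate result. Group means of both genes were higher on day 7, in run 1, than in run 2, and r spans that split. For S100a13 they were 16.4 and 26.2 CPM against 9.08 to 11.1 CPM.

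The 4 untreated controls show how far these genes can differ without Jedi T cells. The ratio of the highest to the lowest control was at least 2 for 7 of the 10 members, beside 15.2% of the 14800 genes tested, and its median was 3.71 over the members against 1.29 over all genes. All genes were taken whatever their level and were not matched to the members. In the controls Fap had 16 to 47 counts and Tagln 17 to 81, where counting error widens the ratio. Pdgfra (1.07-fold, CV 3.14%) and Pdgfa (1.14-fold, CV 6.5%) were the most even, followed by S100a4 (1.77-fold). Thy1 (19.5-fold), Rgs5 (16.1-fold) and Acta2 (8.17-fold) spread most.

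Much of this spread lay in control 2. It was the highest control for 7 of 10 members, beside 21.7% of genes, and at least 3 times every other control for 3 of 10, beside 0.662%. Those 3 were Acta2, Rgs5 and Tagln. Acta2 was 11.2 CPM in control 2 and 1.38, 2.06 and 1.71 CPM in controls 1, 3 and 4. Rgs5 was 8.77 CPM there and 0.544, 1.39 and 1.71 CPM in the others. Tagln was 2.42 CPM against 0.544, 0.744 and 0.758 CPM, and Pdgfb, which endothelial cells make, 3.94 CPM against 2.11, 2.2 and 1.87 CPM. Outside the 10, the pericyte genes Kcnj8 and Abcc9 were high in the same library. Kcnj8 had 88 counts against 5 to 20, and Abcc9 200 against 20 to 56. The full list of 18 pericyte and smooth muscle markers was not highest in control 2. It summed to 265 CPM there, against 271, 243 and 190 CPM in controls 1, 3 and 4. The endothelial Pecam1 was 16.2 CPM in control 2 against 2.24 to 4.59 CPM in the others. Without control 2 the number of members with a ratio of at least 2 was 4, namely Pdgfrb, Rgs5, Fap and Thy1, and the difference between day 15 mCherry cells and controls changed sign for Acta2 (−0.63 to 0.63), Rgs5 (−1.19 to 0.18) and Pdgfb (−0.25 to 0.05), none of them called.

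**Figure D5:**
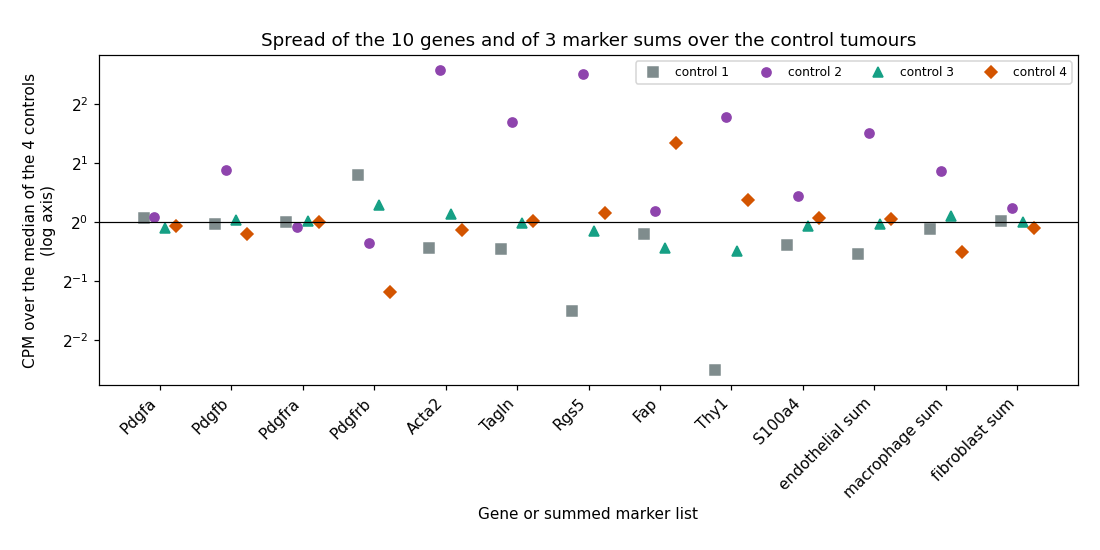
CPM of each gene, and of 3 summed marker lists, in each control over the median of the 4 controls (vertical log axis). Control 2 lies highest for Acta2, Rgs5, Tagln, Thy1 and Pdgfb and for the endothelial and macrophage sums, while Pdgfrb is highest in control 1 and Fap in control 4.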

How the data were processed

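RNA was measured in 16 libraries of sorted cells. A sequencing company made the deposited raw counts per gene, per the labels' protocols. The build was mm10, per the submitters' processing notes, and no source used here gives the aligner or counter. From the DESeq2 table the authors deposited for each day, log2 fold changes and adjusted p-values were copied where named. Counts were filtered with filterByExpr (minimum count 10, minimum total 15), scaled by TMM and compared by quasi-likelihood F-tests (edgeR 4.0.16, R 4.3.3), with Benjamini-Hochberg adjustment over all genes tested at 0.05. The tumour was a block within days. The day 15 libraries were compared with controls without a block. DESeq2 1.42.0 was an alternative. The fit was tested on simulated data. Within-tumour differences and correlations use log2 CPM, where a prior count of 2 was added. Correlations over the 16 libraries span both runs, and a difference between runs that genes share can raise them.

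Labels give the day 15 pairs. Day 7 columns are numbered 2 to 4 and labels 1 to 3, so columns were matched to groups and paired by number. Residuals of same-numbered libraries correlated at 0.11, 0.143 and 0.158 on day 7 (0.0901, 0.163 and 0.232 on day 15). Replicates differed beyond counting error (chi-square per degree of freedom 5.34 to 92.1). The largest values, 92.1 and 88.1, set day 7 mCherry of tumour 4 against tumours 2 and 3, which gave 10.5 between them. Control pairs with control 2 gave 28 to 45.1, and those without it 28.7 to 51.8.

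The members and all lists were chosen with earlier results of these data known. Named are the 10 members, Pdgfc, Pdgfd, Pdgfrl, at most 2 genes of a list by smallest p in a comparison, and the 3 genes most correlated with a member among 11592 whose mean log2 CPM was 1 or more. Markers whose counts describe libraries were named after their values were seen. Coordinates and exon lengths come from GENCODE M21 (GRCm38), promoter windows from RefSeq (GRCm38.p6), with 5 of 10 members matched.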

Additional observations from a re-analysis of the deposited data

Results flagged for a closer look

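In 5 results 1 of the 4 controls lay far from the others, each time control 2. Pdgfb reached 3.94 CPM, Acta2 11.2 CPM, Tagln 2.42 CPM and Rgs5 8.77 CPM in it, and the endothelial markers summed to 149 CPM. In each case the gap to the next control took most of the range of the group, by Dixon's criterion, which chance passes in about 1 of 20 groups. The 5 values come from 1 library and are not independent.

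Acta2 differed from its mCherry partners in opposite directions on the 2 days, with a mean within-tumour log2 difference of 1.03 on day 7 and −0.90 on day 15, each in 3 of 3 tumours. Neither day passed edgeR's quasi-likelihood test (adjusted p = 0.0573 on day 7 and 0.0763 on day 15). The difference between the days did not pass it either (adjusted p = 0.158). Acta2 was picked out from all the members by this pattern. How many genes share a direction in every tumour of a day was not counted, so the pattern is given as a description.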

How the results depend on the processing

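Counts of called genes moved with the libraries, the tool and the filter. Leaving out each tumour gave 1156 to 4558 genes on day 7 and 1736 to 2546 on day 15, leaving out each library 0 to 7 for day 15 mCherry cells against controls and 287 to 2093 for GFP cells against controls, and leaving out each tumour 3 to 126 for the difference between days. DESeq2 called 262, 2953 and 153 genes in these 3 comparisons, where edgeR called 0, 1933 and 35. The difference between days had 354 with no filter and 14 with a minimum count of 50. Without the replicate block 2159 genes were called on day 7, 2059 on day 15 and 2 in the difference between days, and besides the lost calls of S100a4 and Pdgfa the block changed no call of a member. Members with a control ratio of at least 2 numbered 4 to 7 with 1 control left out.

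No called member changed direction, while uncalled ones did with a tumour or library left out. On day 7 the log2 fold change ran from −0.32 to 0.03 for Pdgfa, −0.62 to 0.09 for Pdgfb, −0.22 to 0.01 for Pdgfra and −0.36 to 0.06 for Pdgfrb, each highest without tumour 4. On day 15 it ran from −0.14 to 0.43 for Pdgfb, −1.01 to 0.09 for Tagln, −0.55 to 0.12 for Fap and −0.09 to 0.15 for S100a4. For mCherry cells against controls it ran from −0.71 to 0.05 for Pdgfb, −1 to 0.63 for Acta2 and −1.55 to 0.18 for Rgs5, each highest without control 2, and from −0.13 to 0.09 for Pdgfra, which was 0 with DESeq2, its size factors or 1 fit of run 2 and −0.02 with no filter or a minimum count of 50. For GFP cells against controls it ran from −0.08 to 0.15 for Pdgfa, −0.30 to 0.11 for Pdgfb and −0.16 to 0.68 for Pdgfrb. The difference between days ran from −0.30 to 0.13 for Pdgfrb (0 without the replicate block), −2.05 to 0.24 for Tagln and −0.95 to 2.91 for Rgs5. S100a4 passed that test with no filter (0.64, adjusted p = 0.014) and without day 7 tumour 4 (0.95, adjusted p = 0.035). The cause was not tested. Depth limits Tagln, Rgs5, Fap and Thy1 on day 7, where counts were at most 50.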

Other observations

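Relatives of the single-gene members were measured as well. Over all genes 18.2% were called on day 7 (8.89% higher, 9.33% lower) and 19.5% on day 15 (8.94% higher, 10.6% lower), and the counts of these short lists are given beside that as descriptions. Of 9 S100 genes tested, 0 rose and 2 fell in GFP cells on day 7, and 2 rose and 2 fell on day 15. S100a8, a calcium-binding protein of neutrophils and monocytes, fell by 1.37 (SE 0.21, adjusted p = 0.00209) and fell by 1.97 (SE 0.29, adjusted p = 0.00138). Of 8 RGS genes tested, 2 rose and 1 fell on day 7, and 1 rose and 1 fell on day 15. Rgs1, a gene of leukocytes, fell by 2.48 (SE 0.21, adjusted p = 5.54e-05) and fell by 2.09 (SE 0.48, adjusted p = 0.0131), while Rgs16 rose by 1.83 (SE 0.20, adjusted p = 0.000287) on day 7 and Rgs2 by 0.49 (SE 0.13, adjusted p = 0.0281) on day 15. On day 15 Rgs1 was 0.147 to 0.263 CPM in GFP cells and 0.788 to 1.07 CPM in mCherry cells. There Rgs1 passed the filter through the mCherry cells alone and had to be lower in GFP cells, so its call is a description. Of 8 partners and relatives of FAP and THY1 tested, 0 rose on either day, 1 fell on day 7 and 4 fell on day 15. Itgb3, a chain of the vitronectin receptor to which Thy1 can bind, fell by 1.17 (SE 0.19, adjusted p = 0.00272) and fell by 1.60 (SE 0.09, adjusted p = 8.47e-06). Plaur, the urokinase receptor, which forms complexes with FAP, fell by 0.67 (SE 0.13, adjusted p = 0.00568) on day 15. Macrophage markers were lower in GFP cells on both days, and their part in these values was not tested.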
